A study of Mus musculus with 4 samples.

Results

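Nuclear receptor coregulators are proteins that hormone receptors recruit to switch genes on or off, and the genes for 9 of them were described here: Ncoa1, Ncoa2, Ncoa3, Ncoa6, Med1, Crebbp and Ep300, which encode coactivators, and Ncor1 and Nrip1, which encode corepressors. They were taken by gene symbol as a family, with earlier results of these data known, and all 9 were found among the 52189 gene identifiers of the table. The data come from RNA immunoprecipitation and sequencing (RIP-seq) of AML12 cells, a mouse hepatocyte line established from mice that carry a human transforming growth factor alpha transgene. All cells were cultured with 10% fetal bovine serum, an ITS supplement and 0.1 µM dexamethasone, a ligand of the glucocorticoid receptor, and all were crosslinked with ultraviolet light. Sonicated nuclear lysate was incubated either with an antibody to SAFB (scaffold attachment factor B), which binds both RNA and DNA in the nuclear matrix, or with control IgG. The SAFB RIP and the IgG RIP have 2 libraries each. Both groups share genotype, medium and crosslinking, and the antibody is the only difference between them that the labels give. The labels say that lysate was divided between the antibodies, but not which libraries share a lysate or whether those of a group came from separate cultures, so p-values measure only the spread between these libraries, which may be technical. Input RNA was not analysed here, and in bulk libraries fewer cells of a type and less RNA per cell cannot be told apart.

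A ligand-bound receptor presents a surface that binds the short leucine-rich motifs of coactivators. The p160 proteins encoded by Ncoa1, Ncoa2 and Ncoa3 dock there first and bring in the acetyltransferases CBP (Crebbp) and p300 (Ep300), which acetylate histones. MED1 links the receptor to the Mediator complex and so to RNA polymerase II, and NCOA6 belongs to the ASCOM complex with the histone methyltransferases MLL3 and MLL4. NCoR1 holds a histone deacetylase complex on receptors that lack an agonist, whereas the NRIP1 protein, also called RIP140, represses through receptors that have bound one. In liver this machinery serves the glucocorticoid receptor, the PPARs, LXR and FXR. The SAFB protein is itself known as a corepressor of the oestrogen receptor. RIP-seq measures the RNAs recovered with it, so the values below are of the coregulators' transcripts and not of their proteins.

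All 9 coregulator transcripts were higher in the SAFB RIP than in the IgG RIP, by 1.59-fold (Ncoa2) to 3.62-fold (Ncoa1) in mean TPM, and in each of the 9 the lower SAFB value exceeded the higher IgG value. TPM is a share of each library corrected for transcript length, and the read depth behind it is unknown. Together the 9 took 569 and 614 TPM in the IgG libraries and 1282 and 1259 TPM in the SAFB libraries. In limma, fitted to log2(TPM + 1) of every gene that reached 1 TPM in 2 or more libraries, all 9 were tested and 9 of 9 passed a Benjamini-Hochberg adjusted p of 0.05 as higher. This is to be read against the whole table, where 4964 of 16647 genes tested, 29.8%, were called higher and 8.3% lower, and where both SAFB values exceeded both IgG values in 52.3% and lay below them in 21.4%. The median log2 fold change was 0.98 over the 9 genes and 0.46 over all genes tested. After each library was centred on its median gene, which removes that shift of 0.46, 5 of the 9 still passed as higher against 16.4% of all genes (17.6% passed as lower), and the median of the 9 was 0.52. After quantile normalization 6 passed, against 16.6%, and with protein-coding genes alone 6 passed, against 21.5%. Ncoa2, Ncoa3 and Ncoa6 did not pass in either. Without SAFB RIP replicate 1, or without SAFB RIP replicate 2, 0 of the 9 passed, with medians of 0.89 and 0.96, and over all genes the share called higher was 4.61% and 4.7%. Without IgG RIP replicate 1, or without IgG RIP replicate 2, 9 of 9 passed, against 41.2% and 45.8% of all genes. Without a trend of the variance with level 6 of the 9 passed, against 26.3%, and Ncoa2, Ncoa3 and Ncoa6 did not (adjusted p = 0.0544, 0.0578 and 0.07).

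**Figure D1:**
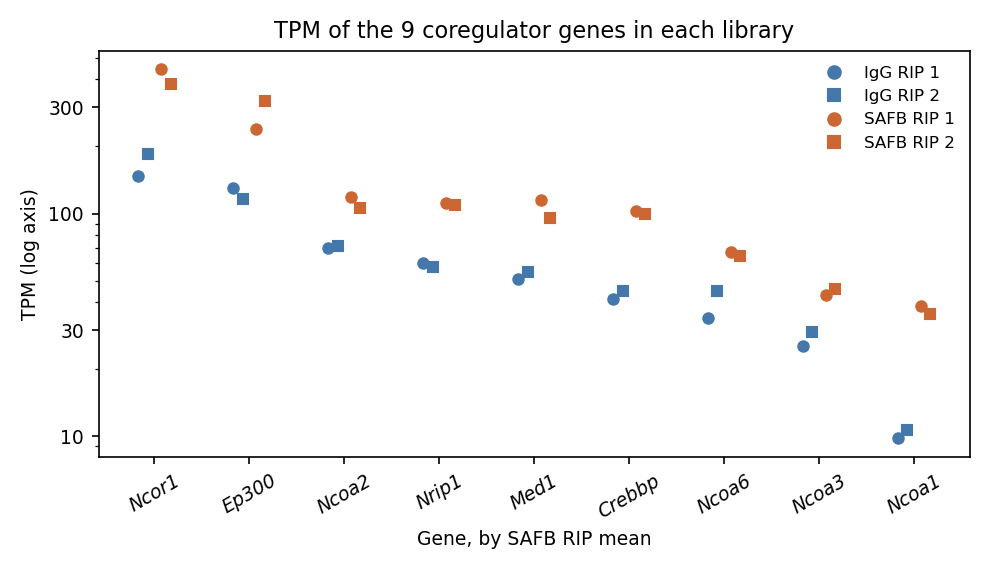
TPM of each coregulator gene (log axis) in the 2 IgG RIP libraries (blue) and the 2 SAFB RIP libraries (orange), with circles for replicate 1 and squares for replicate 2. For every gene both orange points lie above both blue points, from Ncor1 at 381 to 445 TPM in the SAFB RIP down to Ncoa1 at 35.5 to 38.5 TPM.

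The sequences below each show a coding stretch in which the pentamer GAAGA is densest, for 7 of the 9 genes. The richest windows of Med1 and Nrip1, with 3 and 2 matches, are not printed. SAFB has been linked to purine-rich and adenine-rich RNA, and this pentamer was taken as a simple purine-only word. Each stretch is a coding window of 60 bases within 1 exon with the most matches in the gene's transcript with the longest coding sequence. Among windows with equal counts the first along the transcript was kept, so each printed window ends in a match. Transcripts are from GENCODE M21 with positions on mm10, and the windows read 5′ to 3′ on the transcript. Matches are in capitals, and overlapping matches were counted separately. Only the sense strand was searched. Non-overlapping coding windows of this length were counted across the tested protein-coding genes. Of 355047, 17.3% held at least 1 match, 2.79% at least 2, 0.517% at least 3, 0.131% at least 4 and 0.0448% at least 5. The windows printed are the richest of each gene, chosen for that, so these shares do not give how often a richest window reaches such counts. A match is not a binding site.

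The p160 coactivator genes differed among themselves. Ncoa1, which encodes SRC-1 (ENSMUSG00000020647, chromosome 12, 4247362 to 4477182, minus strand), stood at 9.82 and 10.6 TPM in the IgG libraries and at 38.5 and 35.5 TPM in the SAFB libraries. It had the lowest level of the 9 genes in every library and the highest fold change, a log2 difference of 1.76 ± 0.21 (SE; 95% interval 1.21 to 2.31; limma adjusted p = 0.00809). That placed it above 92.3% of the protein-coding genes tested. Ncoa2, which encodes the glucocorticoid receptor coactivator GRIP1 (ENSMUSG00000005886, chromosome 1, 13139105 to 13374083, minus strand), stood at 69.7 and 71.8 TPM with IgG and at 119 and 106 TPM with the SAFB antibody. Its log2 difference of 0.66 ± 0.12 (0.35 to 0.97; adjusted p = 0.0169) was the lowest of the 9, and the interval lay below that of Ncoa1 without overlap. Ncoa3, which encodes SRC-3 (ENSMUSG00000027678, chromosome 2, 165992636 to 166073242, plus strand), stood at 25.4 and 29.5 TPM against 43.0 and 45.8 TPM. Its log2 difference was 0.68 ± 0.16 (0.24 to 1.11; adjusted p = 0.0359), close to that of Ncoa2, and it missed the threshold with the replicate number as a block (0.0635). After median centring Ncoa1 kept a difference of 1.30 and passed (adjusted p = 0.0137), while Ncoa2 at 0.20 and Ncoa3 at 0.22 did not (0.269 and 0.349).

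Ratios between these paralogs within a library do not move with the scaling between libraries. In the IgG libraries the TPM of Ncoa2 was 7.10 and 6.75 times that of Ncoa1, and in the SAFB libraries 3.08 and 3.0 times. The ratio of Ncoa3 to Ncoa1 was 2.59 and 2.77 with IgG and 1.12 and 1.29 with the SAFB antibody, so Ncoa1 gained on both paralogs in both SAFB libraries. Ncoa2 to Ncoa3 stood at 2.74 and 2.43 with IgG and at 2.76 and 2.32 with the SAFB antibody, and here the groups overlapped. With 2 libraries a group the smallest two-sided exact permutation p is 0.333, so the ratios are given as values with no test.

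**Figure D2:**
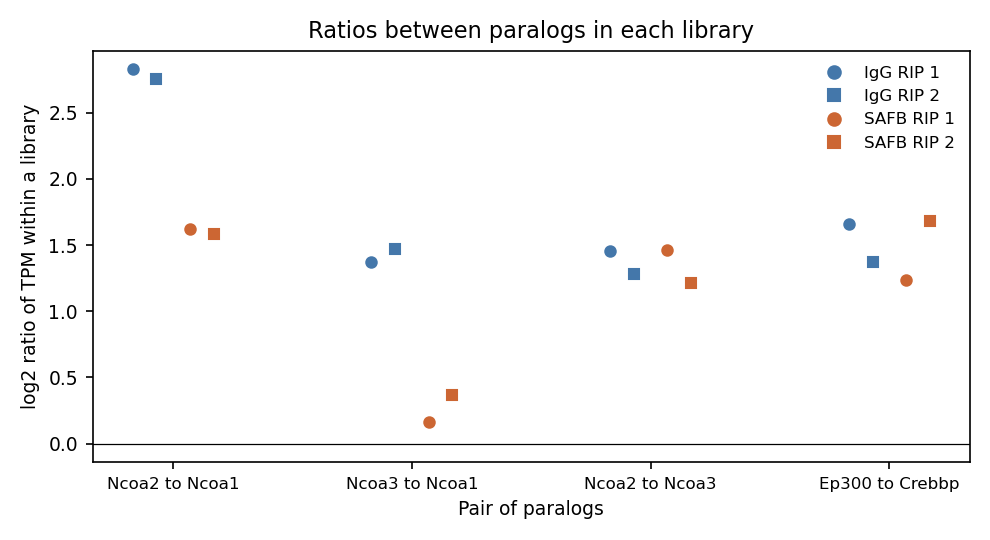
The log2 ratio of TPM between paralogs in each library, for IgG RIP (blue) and SAFB RIP (orange), with circles for replicate 1 and squares for replicate 2. Both ratios to Ncoa1 are lower in the SAFB libraries (Ncoa2 to Ncoa1 from 2.83 and 2.76 to 1.62 and 1.58), and in the other 2 pairs the groups overlap.

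The p160 windows are shown because these 3 paralogs differ in fold change. Whether the match counts bear on that was not tested. The Ncoa1 window has 3 matches (chr12:4339030-4339089, exon 2), and those of Ncoa2 (chr1:13180551-13180610, exon 9) and Ncoa3 (chr2:166052369-166052428, exon 9) have 2 each. The Ncoa2 and Ncoa3 windows are counterparts that share 38 of 60 positions, and the first match sits at the same place in both. The Ncoa1 window, from another exon, shares 19 of 60 positions with that of Ncoa2 and 23 with that of Ncoa3. The last match closes every printed window because of the way windows were chosen.
Ncoa1: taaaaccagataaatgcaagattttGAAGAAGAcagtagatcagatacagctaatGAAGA
Ncoa2: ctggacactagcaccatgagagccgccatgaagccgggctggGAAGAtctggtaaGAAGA
Ncoa3: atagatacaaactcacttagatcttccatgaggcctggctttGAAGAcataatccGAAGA

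The genes for the acetyltransferases CBP and p300 were both higher, with like fold changes. Crebbp (ENSMUSG00000022521, chromosome 16, 4081328 to 4213997, minus strand) stood at 41.3 and 44.9 TPM in the IgG libraries and at 102 and 99.8 TPM in the SAFB libraries. The SAFB values differed little from each other, and the log2 difference was 1.21 ± 0.12 (SE; 95% interval 0.90 to 1.53; limma adjusted p = 0.00619). Ep300 (ENSMUSG00000055024, chromosome 15, 81585351 to 81652077, plus strand) stood at 131 and 116 TPM against 241 and 320 TPM. Its SAFB libraries lay further apart than those of any other gene of the 9, at 281 ± 56.1 TPM (SD, n = 2), and the log2 difference was 1.17 ± 0.17 (0.71 to 1.63; adjusted p = 0.0122). Both passed after median centring, Crebbp at 0.75 (adjusted p = 0.0134) and Ep300 at 0.71 (0.0372). Within libraries the TPM of Ep300 was 3.16 and 2.59 times that of Crebbp with IgG and 2.35 and 3.21 times with the SAFB antibody, so the ratio overlapped between the groups. On the log2 scale that ratio differed by -0.06 between the group means.

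The richest windows of Crebbp (chr16:4091820-4091879) and Ep300 (chr15:81643107-81643166) lie in exon 28 of both genes and are counterparts, with 48 of 60 positions identical. They are shown because a paralogous pair with like fold changes carries the corresponding stretch. Crebbp has 5 matches there and Ep300 4, in windows that are 83.3% and 78.3% purine.
Crebbp: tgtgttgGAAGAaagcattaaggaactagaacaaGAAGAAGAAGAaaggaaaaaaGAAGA
Ep300: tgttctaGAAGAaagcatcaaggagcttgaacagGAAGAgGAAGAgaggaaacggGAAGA

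Med1 and Ncoa6, whose proteins connect receptors to larger complexes, had intermediate and low fold changes. Med1 (ENSMUSG00000018160, chromosome 11, 98152154 to 98193293, minus strand) stood at 50.7 and 54.7 TPM with IgG and at 115 and 95.7 TPM with the SAFB antibody, a log2 difference of 0.98 ± 0.14 (SE; 95% interval 0.60 to 1.36; limma adjusted p = 0.0121). After median centring it stood at 0.52 and narrowly missed the threshold (adjusted p = 0.0522). Ncoa6 (ENSMUSG00000038369, chromosome 2, 155390656 to 155473894, minus strand) stood at 33.9 and 45.0 TPM against 67.2 and 64.7 TPM. Its IgG libraries were the more spread relative to their mean of all 9 genes, at 39.5 ± 7.80 TPM (SD, n = 2), while its SAFB libraries nearly coincided. The log2 difference of 0.74 ± 0.18 (0.26 to 1.22; adjusted p = 0.0364) fell to 0.28 after median centring and did not pass there (0.251). Ncoa6 also missed the threshold without the filter (limma adjusted p = 0.0554), after quantile normalization (0.125) and with protein-coding genes alone (0.109). Ncoa6 nevertheless holds one of the richest coding windows, with 5 matches (chr2:155414834-155414893, exon 10), which is shown because it goes with one of the lower fold changes.
Ncoa6: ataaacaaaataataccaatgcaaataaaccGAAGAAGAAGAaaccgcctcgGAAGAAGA

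Both corepressor genes were higher. Ncor1 (ENSMUSG00000018501, chromosome 11, 62316426 to 62458541, minus strand) was the most abundant of the 9 genes in every library, at 148 and 184 TPM with IgG and 445 and 381 TPM with the SAFB antibody. In the SAFB libraries it ranked 231 and 292 among the 16647 genes tested, against 935 and 641 in the IgG libraries. Its log2 difference of 1.31 ± 0.16 (SE; 95% interval 0.90 to 1.73; limma adjusted p = 0.00816) was the second of the 9 and passed after median centring at 0.85 (0.0147). Nrip1 (ENSMUSG00000048490, chromosome 16, 76287400 to 76373827, minus strand) stood at 60.1 and 57.3 TPM against 112 and 109 TPM. Both groups were tight, and the log2 difference was 0.90 ± 0.11 (0.62 to 1.19; adjusted p = 0.00831), or 0.44 after median centring, at the threshold (0.0496).

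The Ncor1 transcript is 9037 bases long, 48.5% GC and 29.4% adenine. With the trend of TPM with adenine share removed in each library, an alternative added after seeing the data, Ncor1 stood at 0.68 (limma adjusted p = 0.0201). Its richest window, with 4 matches (chr11:62384763-62384822, exon 15), is shown because it is 93.3% purine, the highest share among the windows of the 9 genes.
Ncor1: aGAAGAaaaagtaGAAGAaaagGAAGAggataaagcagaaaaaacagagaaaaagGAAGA

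**Figure D3:**
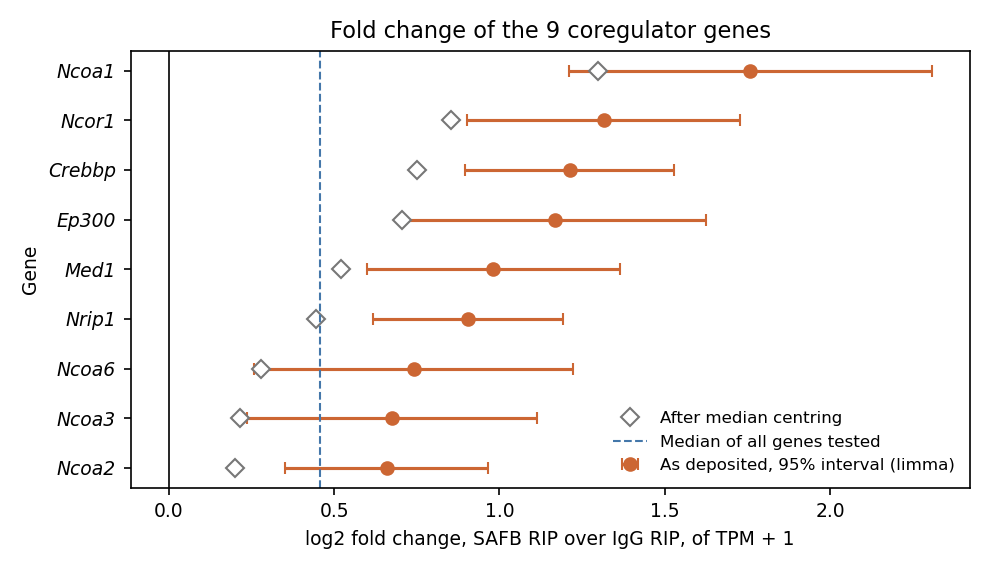
Log2 fold change of TPM + 1 in the SAFB RIP over the IgG RIP for each coregulator gene, with its 95% interval from limma (orange), the value after median centring (open diamonds) and the median of all genes tested (dashed line, 0.46). All 9 intervals exclude 0, and the centred values run from 0.20 for Ncoa2 to 1.30 for Ncoa1.

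By group mean the 9 genes kept a single order of TPM in both groups: Ncor1, Ep300, Ncoa2, Nrip1, Med1, Crebbp, Ncoa6, Ncoa3 and Ncoa1. In the IgG libraries each neighbour in that order lay apart from the next except Crebbp and Ncoa6, whose values overlapped. In the SAFB libraries Ncoa2, Nrip1, Med1 and Crebbp drew together, with means of 112, 111, 105 and 101 TPM, and each overlapped the next. Relative to the median of the 9 within each library, Ncoa1 gained most, from 0.193 and 0.194 to 0.343 and 0.356 of that median. Ncor1 and Crebbp also gained without overlap of the groups, Ncoa2, Ncoa3 and Ncoa6 lost without overlap, and Med1, Nrip1 and Ep300 overlapped. That median comes from the same 9 genes, so some must gain where others lose. Med1 was itself the median in both IgG libraries. These relative values are description only and were not tested. Over the 9 genes the median gap between replicates was 0.12 on the log2 scale for IgG and 0.11 for SAFB, against 0.37 and 0.17 over all genes tested.

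The partners of these proteins, taken from 6 lists of complexes and families, were more mixed. They are given by their counts beside the 29.8% called higher and 8.3% called lower in the whole table. Most of the named partner genes that passed lost their call without SAFB RIP replicate 1, and likewise without SAFB RIP replicate 2. Of 23 other receptor coactivator genes tested, 8 rose, 1 fell and 14 did not pass, with a median log2 difference of 0.52, and after median centring 5 rose and 4 fell. Cited1 was listed at 0 in all 4 libraries. Ncoa7, which despite its name is not a p160 gene, rose from 5.01 and 9.77 to 49.2 and 44.6 TPM (2.57 ± 0.35 SE; limma adjusted p = 0.0104). The RNA helicase genes Ddx5 and Ddx17, whose proteins also act as coactivators, rose by 1.21 ± 0.12 and 0.66 ± 0.10. Ddx17 did not pass after median centring, at 0.20. Rbm39, a splicing factor and coactivator gene, stood at 0.48 ± 0.20 and did not pass (0.121). Trrap, which encodes a large scaffold of acetyltransferase complexes, fell by 0.69 ± 0.17, from 469 and 343 to 245 and 251 TPM. It did not pass with a GC trend (-0.44) or the adenine trend removed (-0.46). Its call was also lost with 0.1 in place of 1 added to TPM (limma adjusted p = 0.0514). The same held without the filter (0.0667) and without the variance trend (0.0896).

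Of 9 other lysine acetyltransferase genes tested, 5 rose, 0 fell and 4 did not pass, with a median of 0.59, and 3 rose and 0 fell after median centring. Taf1, a subunit gene of TFIID, rose by 1.57 ± 0.16, Kat6a by 1.49 ± 0.15 and Kat8 by 1.07 ± 0.10, all of which also passed after centring. Kat2b, which encodes PCAF, rose by 0.59 ± 0.14 and did not pass after centring, at 0.13, or with the GC trend removed, at 0.20. Its call was also lost after quantile normalization, with protein-coding genes alone, with the length or adenine trend removed and without the variance trend. Kat5, the TIP60 gene, stood at 0.36 ± 0.12 and did not pass (limma adjusted p = 0.0781). Of the 9 ASCOM genes, partners of NCOA6, 3 rose, 2 fell and 4 did not pass, with a median of 0.42, and 1 rose and 3 fell after centring. The methyltransferase gene Kmt2c (MLL3) rose from 59.9 and 72.4 to 143 and 124 TPM (1.01 ± 0.15), and did not pass with the length trend (0.67) or the adenine trend removed (0.43). Its paralog Kmt2d (MLL4) fell from 130 and 114 to 82.2 and 89.5 TPM (-0.50 ± 0.12). Kmt2d did not pass with the replicate block (limma adjusted p = 0.0571), without the filter (0.0538) or without the variance trend (0.104). It stood at 0.17 once a GC trend was removed and at 0.15 once the adenine trend was removed. Kdm6a, a histone demethylase gene, rose by 0.73 ± 0.18, and did not pass after centring (0.27), with the GC trend removed (0.33) or with the adenine trend removed (0.094). The Kdm6a call was also lost after quantile normalization, with protein-coding genes alone and with the length trend removed. The same held without the filter and without the variance trend. Ash2l stood at 0.42 ± 0.14 without passing, and Pagr1a fell by 1.97 ± 0.36, from 6.65 and 10.1 to 1.45 and 1.24 TPM. Pagr1a did not pass with the GC trend (-1.28) or the adenine trend removed (-1.29).

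Most genes of the complexes around Med1 and Ncor1 did not pass the test. Of 31 other Mediator genes tested, 5 rose, 2 fell and 24 did not pass, with a median of 0.31 and, after centring, 3 that rose and 6 that fell. Med8, of the head module, rose from 29.8 and 31.5 to 138 and 140 TPM (2.15 ± 0.12; limma adjusted p = 0.00378), more than any of the 9 genes, and Med20 rose by 1.07 ± 0.11. Med24 fell from 48.0 and 45.1 to 19.3 and 20.6 TPM (-1.18 ± 0.16), and did not pass with the adenine trend removed (-0.64). Med12, of the kinase module, fell by 0.43 ± 0.11. Its call was lost with the replicate block (adjusted p = 0.0743), with the GC trend (0.0643) or adenine trend removed (0.0863), without the variance trend (0.129) and without the filter (0.0572). Cdk8, the kinase, did not pass at 0.22 ± 0.10. Of 4 NCoR complex genes tested beside Ncor1, 1 rose, 0 fell and 3 did not pass, with a median of -0.015, and 0 rose and 2 fell after centring. Tbl1x rose by 0.68 ± 0.12, and did not pass after centring (0.22) or with the GC (0.28) or adenine trend removed (0.32). The Tbl1x call was also lost after quantile normalization, with protein-coding genes alone and without the variance trend. Tbl1xr1 at 0.21 ± 0.21, Gps2 at -0.24 ± 0.17 and Hdac3, the deacetylase of the complex, at -0.48 ± 0.14 did not pass. After centring Hdac3 and Gps2 passed as lower, at -0.94 and -0.70, and Gps2 stood at 0.29 once a GC trend was removed.

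Of 20 other corepressor genes tested, 10 rose, 4 fell and 6 did not pass, with a median of 0.57, and 7 rose and 5 fell after centring. Lcor, a ligand-dependent corepressor gene, rose from 67.0 and 97.3 to 358 and 299 TPM (2.0 ± 0.22; limma adjusted p = 0.00721) and its paralog Lcorl by 2.04 ± 0.27. Spen, which encodes the RNA-binding corepressor SHARP, rose by 1.79 ± 0.19, and Ctbp2, whose protein binds NRIP1, rose by 0.62 ± 0.12 and not after centring, at 0.16. Ctbp2 also missed after quantile normalization (limma adjusted p = 0.107), with protein-coding genes alone (0.0961) and without the variance trend (0.0684). Hdac5 fell from 172 and 127 to 75.1 and 84.2 TPM (-0.89 ± 0.18) and Sin3b by 0.60 ± 0.14. Neither passed with the GC trend removed, with the adenine trend removed or without the variance trend. Without the variance trend the limma adjusted p was 0.0581 for Hdac5 and 0.0881 for Sin3b, and Sin3b also missed without the filter (0.0539). Hdac5 stood at -0.075 with the GC trend removed and -0.16 with the adenine trend removed, and Sin3b at -0.10 and 0.0048.

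**Figure D4:**
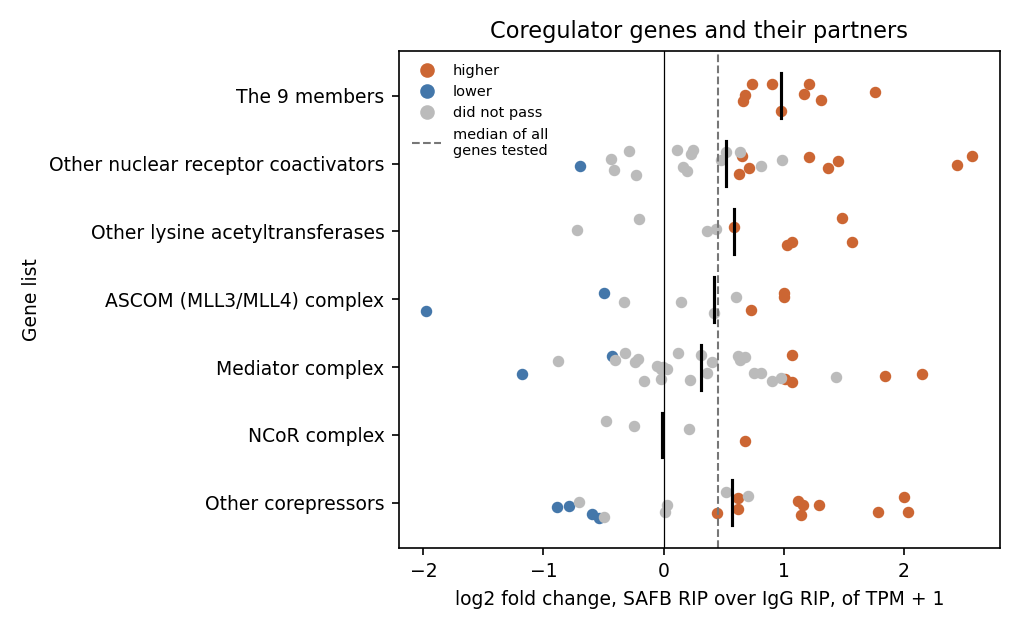
Log2 fold change of each gene tested (points), by list, coloured by whether it was called higher, lower or neither, with the list median (black bar) and the median of all genes tested (dashed line). The 9 coregulator genes lie to the right of the dashed line, from 0.66 to 1.76, while the 6 partner lists spread to both sides of 0.

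The 9 transcripts share features that the choice of genes did not use. All encode large proteins, with coding sequences of 3486 bases (Nrip1) to 7365 bases (Ncor1) against a median of 1389 over the 11961 protein-coding genes tested, and all 9 transcripts lie in the top quartile of length, 4756 (Ncoa1) to 10820 bases (Crebbp). In that quartile the median log2 difference was 0.59 and 39.1% of genes were called higher, against 0.12 and 19.9% in the bottom one. With a trend with transcript length removed in each library, 7 of the 9 passed as higher, against 28.2% of all genes. GC content ran from 43.6% (Nrip1) to 54.1% (Ncoa2), and 7 passed with a GC trend removed, against 25.8%. Ncoa3 and Ncoa6 were the 2 that did not, in both cases. Nrip1 stands apart in structure, with 4 exons of which one holds 7616 of its 7868 bases, while the other 8 have 16 to 46 exons.

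Base composition varied with fold change across the protein-coding genes, and more weakly among the 9. Across the 11961 genes, which are not independent replicates, Spearman's rho with the log2 difference was 0.64 for adenine share and -0.51 for GC content. It was 0.43 for purine share, 0.18 for transcript length and 0.36 for GAAGA matches per kilobase among the 11662 transcripts with at least 1 match. Among the 9 genes rho was 0.40 for adenine share, -0.28 for GC content and 0.23 for purine share. The 9 genes held 25.2% to 29.5% adenine, and 8 of them lay above the median of 25.2%. With the adenine trend removed, 7 of the 9 still passed as higher, against 22.8% of all genes. Ncoa6 at 0.23 and Nrip1 at 0.26 did not pass. Ncoa1, Ncor1 and Crebbp stood at 1.14, 0.68 and 1.25.

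Among the 9, fold change ran broadly in the order of the density of GAAGA in the transcript, but not exactly. Ncor1 lay above Ncoa1, Nrip1 above Ep300 and Med1, and Ncoa2 above Ncoa6 and Ncoa3 in density and below them in fold change. Ncor1 and Ncoa1 had 3.76 and 3.57 matches per kilobase, Crebbp 2.96, Nrip1 2.92, Ep300 2.51 and Med1 2.49, and Ncoa2, Ncoa6 and Ncoa3 had 2.04, 1.97 and 1.86. Spearman's rho was 0.88 and Pearson's r 0.87 over the 9 genes, the highest of 12 features set beside the fold change. It was 0.93 with each gene's longest annotated transcript, 0.70 over coding sequences alone and 0.79 without Ncoa1 and Ncor1. Over coding sequences Nrip1 had the highest density, 4.30 matches per kilobase, with Ncor1 at 4.21 and Ncoa1 at 3.68. Its fold change was lower than those of Ncor1 and Ncoa1. The points are genes measured in the same 4 libraries that share length and base composition, and no p is given. Ncor1 and Ncoa1 lay above the upper quartile of all such densities and the other 7 within the quartiles. The median was 2.48 over the protein-coding genes with a match, with upper and lower quartiles at 3.54 and 1.68. On its longest annotated transcript Ncoa1 had 3.14 matches per kilobase, which is below that upper quartile.

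**Figure D5:**
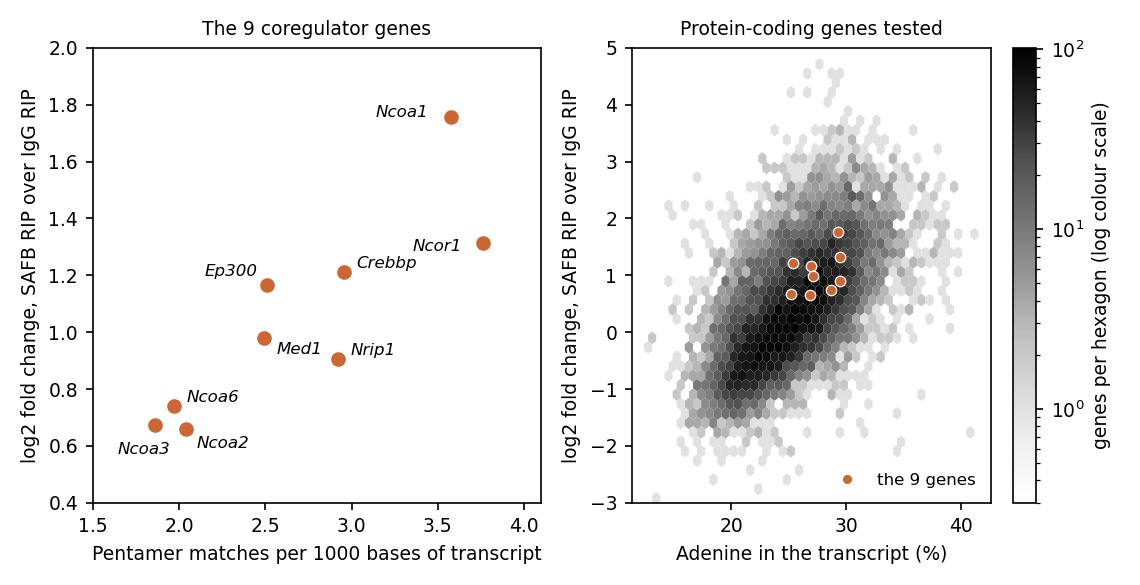
Left, log2 fold change of the 9 coregulator genes against matches of the purine pentamer per kilobase of transcript, which run from 1.86 (Ncoa3) to 3.76 (Ncor1). Right, log2 fold change of the protein-coding genes tested against the adenine share of the transcript, as counts of genes per hexagon on a log colour scale, with the 9 genes in orange between 25.2% and 29.5% (2 genes outside the drawn range are left out).

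Over the 4 libraries in log2(TPM + 1), the tested genes nearest to Ncoa1 were Kif11 and Prdm9, at Euclidean distances of 0.13 and 0.17. Those nearest to Ncoa2, at the other end of the fold changes, were Tbl1x and Atp5f1, at 0.03 and 0.09. Few exon bases of the 9 genes are shared with other annotated genes. Sulf2 on the opposite strand covers 154 exon bases of Ncoa3 (1.95%) and stood at 0.418 TPM or less, and Pigl covers 82 of Ncor1 (0.64%). The libraries were strand-specific, but whether counting used strand was not given, so reads over these bases cannot be assigned.

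The antibody's own family was recovered. Safb stood at 166 ± 5.99 TPM with IgG and 934 ± 76.3 TPM with the SAFB antibody (SD, n = 2), and Safb2 (log2 difference 2.99) and Sltm (1.44) were higher as well. The hepatocyte markers Alb, Ttr, Trf, Apoa1, Hnf4a, Foxa1, Foxa2, Krt8 and Krt18 were present in all libraries, Afp was listed at 0 in both IgG libraries, and these 10 summed to 7248 to 7363 TPM with IgG and 6200.0 to 6429.9 with the SAFB antibody. Of 9 markers of other liver cells, Dcn, Cdh5 and Adgre1 were listed at 0 throughout and only Cd68 was tested. The 9 summed to 7.73 to 12.8 TPM with IgG and 22.2 to 34.3 with the SAFB antibody, and their part in the results was not tested. Cd68 made up most of these sums, at 12.7 and 6.31 TPM with IgG and 31.5 and 21.3 TPM with the SAFB antibody. It did not pass (limma adjusted p = 0.0562). The libraries had 16036 and 17284 entries above 0 with IgG and 22395 and 21012 with the SAFB antibody.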

How the data were processed

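RIP-seq libraries of AML12 nuclear RNA were analysed from 1 table of TPM values deposited by the authors. Per the submitters' processing notes, HISAT2, HTSeq, DESeq2, StringTie and the build mm10 were used. Which tool made the TPM, its version, the gene annotation and whether strand was used in counting were not stated there or in the labels. TPM keeps no read depth, so no counting interval is given. Columns sum to 999224 to 999837. Entries sharing an identifier (14) were summed, and no per-sample column was left unmatched.

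Groups were taken from the sample titles. Genes reaching 1 TPM in 2 or more of the 4 libraries (16647) were fitted as log2(TPM + 1) with limma 3.58.1 in R 4.3.3, with a variance trend, 2 residual degrees of freedom and 2.50 prior ones. P-values were adjusted by Benjamini-Hochberg over all genes tested, with a threshold of 0.05. The pseudocount understates fold changes of low genes. Errors are SE of fold changes or SD of TPM. The fit was tested on simulated data. Gene models and transcripts came from GENCODE M21, in which 52042 of 52189 identifiers were found. Its transcript with the longest coding sequence stood for each gene.

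Named genes were the 9 members, the SAFB family and, per partner list, the 4 with the highest mean TPM and the largest rise and fall that passed, plus the 2 genes nearest to the members with the largest and smallest fold change. Some genes of these lists are not reported here. The members and lists were chosen with earlier results of these data known. In all, 16 alternatives were run, 1 of them (adenine) added after seeing the data. Protein sequences were not used here.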

Additional observations from a re-analysis of the deposited data

How the results depend on the processing

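Under the 16 alternatives all 9 coregulator genes kept a positive log2 difference. Their count of calls went from 9 to 5 after median centring, and their median from 0.98 to 0.52. Without a variance trend 6 passed and the median stayed at 0.98. Without the filter 8 passed, all but Ncoa6 (limma adjusted p = 0.0554), with 4460 genes called higher over the table. The median was 0.68 after quantile normalization, 0.69 with protein-coding genes alone, 0.84 with a length trend removed and 0.75 with the adenine trend removed. Leaving out 1 library gave 0 to 9 calls, 0 without either SAFB library and 9 without either IgG library, and medians of 0.89 to 1.03. With 1 library in a group, that library is assumed to vary like the others. Of 144 single-gene values, 105 kept their call and 39 lost it. Over all genes, 4964 higher and 1382 lower became 2736 and 2935 after median centring, 2758 and 2986 after quantile normalization and 2600 and 2322 with protein-coding genes alone. Lower calls were 822 with a GC trend removed and 429 with the adenine trend removed. Leaving out 1 library gave 767 to 7627 higher and 7 to 2566 lower. The cause was not tested.

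Library numbers are not said to mark shared lysates, and deviations of same-numbered libraries correlated at -0.02 across genes. With the replicate block, 8 of the 9 passed, all but Ncoa3 (adjusted p = 0.0635), with 4797 higher and 1264 lower overall.

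Some partner genes changed direction. Tbl1xr1 stood at -0.25, -0.10 and -0.084 after median centring, quantile normalization and with protein-coding genes alone, -0.17 with the GC trend removed and, leaving out 1 library, at -0.043 (without SAFB RIP replicate 2) to 0.47 (without SAFB RIP replicate 1). Cdk8 stood at -0.24, -0.10 and -0.078 under the same 3 and -0.050 with the GC trend removed. Ash2l (-0.037) and Kat5 (-0.10) did so after median centring, Gps2 with the GC trend removed (0.29), Kmt2d with the GC (0.17) or adenine trend removed (0.15), and Rbm39 (-0.22) and Sin3b (0.0048) with the adenine trend removed.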

Other observations

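Processed pseudogenes inside introns of 2 of the coregulator genes were higher in the SAFB RIP, and were singled out after their values had been seen. Gm12276, in an intron of Ncor1 on the opposite strand, was listed at 0 in both IgG libraries and stood at 46.4 and 47.7 TPM in the SAFB libraries. Gm14239, in an intron of Ncoa6 on the same strand, stood at 1.19 and 2.78 TPM with IgG and at 33.3 and 41.4 TPM with the SAFB antibody, a log2 difference of 3.73 ± 0.40 (SE; limma adjusted p = 0.00691). Processed pseudogenes share sequence with their parent genes, so both values are uncertain. In introns of Ncoa2, the 6 entries tested ran from -0.46 to 0.94 in log2 difference and did not pass (lowest limma adjusted p = 0.0674).

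The paralogs Kmt2c and Kmt2d of the ASCOM list changed their ratio. Within libraries Kmt2c had 0.462 and 0.635 times the TPM of Kmt2d with IgG and 1.74 and 1.39 times with the SAFB antibody. The Kmt2c transcript is 47.6% GC and 29.1% adenine and that of Kmt2d 58.4% GC and 21.6% adenine. The pair was chosen after its values had been seen.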
